A study of Homo sapiens with 6 samples.

Results

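NF-kB is a family of transcription factors that is held in the cytoplasm by inhibitor proteins and enters the nucleus when receptors for tumor necrosis factor, interleukin 1 or microbial products are engaged. Among the genes it switches on are its own inhibitors, which close a negative feedback loop, and chemokines, which draw neutrophils and monocytes to inflamed tissue. In liver the hepatocyte is both a target of such signals and a source of chemokines. The genes described here were taken by name and are 10 of the 60623 genes in the deposited tables. NFKBIA and TNFAIP3 are feedback inhibitors, NFKB1 and RELB encode NF-kB subunits, CXCL1, CXCL2, CXCL8 and CCL2 encode chemokines, ICAM1 encodes a leukocyte adhesion receptor and SOCS3 a feedback inhibitor of the JAK-STAT pathway. All 10 had exactly 1 row in each table.

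The 6 RNA sequencing libraries came from hepatocyte-like cells that the labels call hepatoblasts, sampled at day 19 after differentiation of the human embryonic stem cell line H9. In 3 libraries the cells had received 0.1% DMSO, the vehicle, and in 3 they had received HFPO-TA, a fluorinated ether acid built from units of hexafluoropropylene oxide, at a labelled dose of 10 whose unit is not legible. No label states a vehicle share for the HFPO-TA libraries, how long the exposure lasted, or whether each replicate was its own culture. The p-values therefore reflect only how far these libraries scatter, which may be a technical scatter. No inflammatory stimulus is named for any library, and all cells derive from 1 cell line. The comparison addresses whether NF-kB feedback and chemokine genes moved in cells given HFPO-TA.

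Levels are in TPM, a share of all transcripts corrected for transcript length, so they can be compared between genes. The 6 columns summed to between 995690 and 996186 TPM, and sequencing depth is unknown. AFP, the alpha-fetoprotein of immature hepatocytes, ranked highest in each library. The 14 hepatocyte and hepatoblast markers together held 115500 to 128300 TPM with DMSO and 102100 to 110000 TPM with HFPO-TA. Of 12 macrophage and Kupffer cell markers, 6 stayed under 1 TPM in all libraries, C1QA, C1QB and VSIG4 were listed at 0 throughout, and PTPRC, the pan-leukocyte antigen, reached at most 0.04 TPM. Others were present in every library: CD68 at 42.58 to 56.03 TPM, CSF1R at 4.09 to 8.13 TPM and CD163 at 1.04 to 2.15 TPM. Stromal and stellate markers were present, at 1249 to 1917 TPM in sum with DMSO and 1014 to 2192 TPM with HFPO-TA. In bulk RNA, a change in the number of cells of a type and a change in RNA per cell cannot be told apart.

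Most of the genes carry letters upstream of a RefSeq start that resemble NF-kB sites. RefSeq windows (GRCh38.p14) were found for 8 of the 10 genes, and their starts can differ from the GENCODE 29 gene starts given further on. NF-kB dimers recognise sites built of facing GGAA and TTCC elements. The motif GGAANTTCC, picked after these windows had been read, lay within 250 bases upstream of a start in 6 of the 8 genes, against 0.826% of 35116 windows of that length. A broader kappaB consensus, which overlaps it, was matched in 5 of the 8 and in 9.96% of all windows, on either strand. The stretches below run 30 bases in the direction of the gene, with matches to either motif in capitals. A match is a description of the letters, not evidence that the site is used in these cells.

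NFKBIA: ctgactggcttGGAAATTCCCcgagcctga
CXCL1: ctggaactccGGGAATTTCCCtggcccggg
CXCL2: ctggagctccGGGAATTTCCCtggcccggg
CXCL8: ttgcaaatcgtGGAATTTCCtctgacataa
ICAM1: tgctttagcttGGAAATTCCggagctgaag
NFKB1: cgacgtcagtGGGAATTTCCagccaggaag
TNFAIP3: ctttGGAAAGTCCCgtGGAAATCCCCgggc

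These stretches lie at chr14:35404812-35404841 (minus strand) for NFKBIA, chr4:73869304-73869333 for CXCL1, chr4:74099254-74099283 (minus strand) for CXCL2 and chr4:73740467-73740496 for CXCL8. Those of ICAM1, NFKB1 and TNFAIP3 lie at chr19:10270923-10270952, chr4:102501300-102501329 and chr6:137867188-137867217, all on the plus strand. The stretches of CXCL2, ICAM1 and TNFAIP3 lie inside the gene as GENCODE 29 draws it, although upstream of the RefSeq start. CXCL1 and CXCL2 share the same run of capital letters and 95 of the 100 bases nearest their starts. SOCS3 had windows at more than 1 start and matched neither motif in them. They lie at chr17:78359668-78359917, inside the gene as GENCODE 29 draws it, and at chr17:78360926-78361175. Neither covers the bases just upstream of the GENCODE 29 start of SOCS3 at 78360077 (minus strand), so sites there were not searched. The motif TTCNNNGAA, of the kind that STAT factors bind, was matched in 1 of the 8 genes, ICAM1, and in 6.57% of all windows. The AP-1 type motif TGANTCA was matched in 1 of the 8, CXCL8, and also in 6.57% of windows. The whole 250 bases upstream of NFKBIA (chr14:35404750-35404999, minus strand), the most abundant of the genes, read as follows.

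NFKBIA upstream: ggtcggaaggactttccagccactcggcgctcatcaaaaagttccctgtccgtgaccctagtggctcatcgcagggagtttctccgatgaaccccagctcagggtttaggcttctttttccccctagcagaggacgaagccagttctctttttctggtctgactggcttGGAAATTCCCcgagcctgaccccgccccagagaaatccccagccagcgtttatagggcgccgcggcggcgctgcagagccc

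With or without HFPO-TA, the NF-kB inhibitors NFKBIA and TNFAIP3 were the most abundant of the 10 genes, and CXCL1 and CXCL8 the least. NFKBIA led with a mean of 45.16 TPM over the 6 libraries, above 83.4% of all tested genes, and TNFAIP3 followed at 23.66 TPM. CXCL2 (11.22), SOCS3 (8.848), ICAM1 (7.74), NFKB1 (4.985) and RELB (4.918 TPM) came next, and each overlapped its neighbour in this order over the libraries. CCL2 averaged 2.252 TPM, CXCL1 0.6833 TPM and CXCL8 0.19 TPM, and neighbours among these also overlapped. NFKBIA and TNFAIP3 each lay wholly above the gene after it. CXCL1 and CXCL2 differed in level although their upstream letters and transcripts are alike: the CXCL1 transcript aligned to CXCL2 over 1101 positions at 88.7% identity. How the authors' counting divided such reads is not stated, so the split between CXCL1, CXCL2 and CXCL3 is uncertain.

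**Figure D1:**
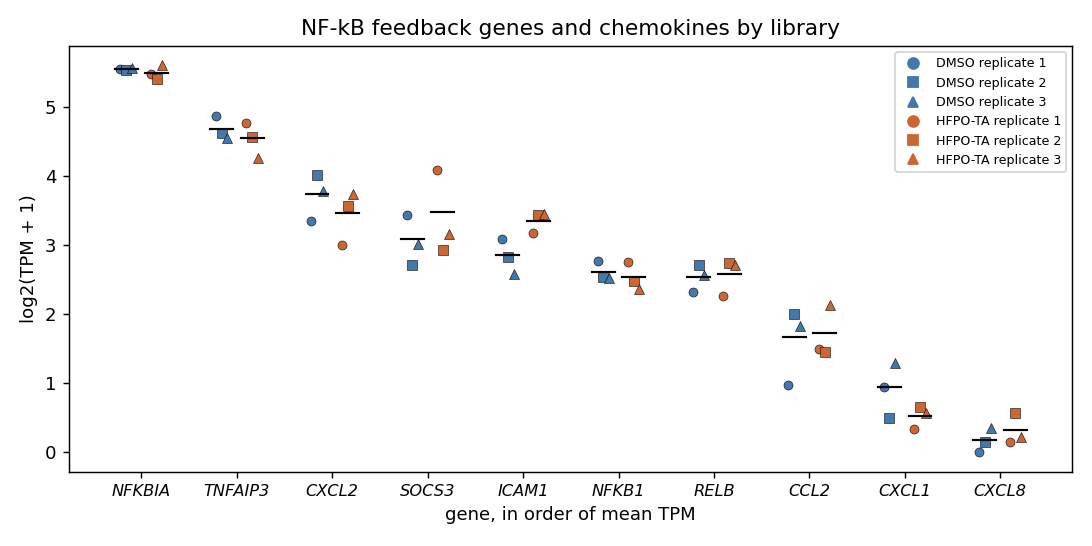
Levels of the 10 genes as log2(TPM + 1) on the vertical axis, by gene in order of mean TPM, with 1 point per library (blue DMSO, orange HFPO-TA, shape by replicate number) and black bars at the log2(TPM + 1) of each group's mean TPM. NFKBIA lies highest at 41.49 to 47.82 TPM, CXCL8 lies lowest at 0 to 0.49 TPM, and ICAM1 alone has groups that do not overlap.

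None of the genes passed the test between HFPO-TA and DMSO. Of the 10, 8 passed the filter on low values and 0 were called by limma at an adjusted p under 0.05, where 0.492% of the 15664 tested genes were called. At an unadjusted p under 0.05 there was 1 of 8, ICAM1, where 12% of all tested genes reached it, so this share is near the background. The median log2 fold change of the 8 was -0.01 (-0.00953) beside -0.00764 for all tested genes, with 4 above 0 and 4 below. Each log2 fold change is the HFPO-TA mean of log2(TPM + 1) less the DMSO mean, and the added 1 shrinks it for low genes.

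NFKBIA encodes IkB-alpha, which binds NF-kB dimers and carries them out of the nucleus, and its transcript is a common readout of NF-kB activity. In GENCODE 29 (GRCh38) it lies on chromosome 14 from 35401511 to 35404749. NFKBIA stood at 46.02, 45.61 and 46.38 TPM in the DMSO replicates 1 to 3 and at 43.63, 41.49 and 47.82 TPM in the HFPO-TA replicates. The DMSO libraries lay inside the range of the HFPO-TA libraries. Its log2 fold change was -0.06 (SE 0.08, adjusted p = 0.84), and the 95% confidence interval of the fold ran from 0.852 to 1.09. That interval was the narrowest among the tested genes of the group.

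TNFAIP3 encodes A20, an enzyme that edits ubiquitin chains and so switches off signalling to NF-kB. It lies on chromosome 6 from 137867188 to 137883312. TNFAIP3 stood at 28.42, 23.66 and 22.45 TPM with DMSO and at 26.41, 22.70 and 18.29 TPM with HFPO-TA. The groups overlapped, and replicate 1 was the highest library of each. The log2 fold change was -0.15 (SE 0.15, adjusted p = 0.763), with an interval of the fold from 0.715 to 1.14. AL357060.1, on the opposite strand, shares 95 exon bases with TNFAIP3 and reached at most 1.24 TPM. Whether strand was kept is not stated.

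NFKB1 encodes p105, the precursor of the p50 subunit, and RELB a subunit of the alternative pathway. NFKB1 stood at 5.82, 4.79 and 4.77 TPM with DMSO and 5.77, 4.61 and 4.15 TPM with HFPO-TA (log2 fold change -0.07, SE 0.15, adjusted p = 0.902). RELB stood at 4.01, 5.54 and 4.94 TPM with DMSO and 3.81, 5.68 and 5.53 TPM with HFPO-TA (0.04, SE 0.18, adjusted p = 0.962). The groups of both genes overlapped. Both values lay near 0 and turned sign when single libraries were left out: RELB was at -0.069 without DMSO replicate 1, and NFKB1 was at 0.013 without HFPO-TA replicate 3. The 2 genes split by replicate number in opposite ways, since replicate 1 was highest for NFKB1 and lowest for RELB in both groups.

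ICAM1, the endothelial and epithelial ligand of leukocyte integrins, was the only one of the genes whose groups did not overlap. It lies on chromosome 19 from 10270835 to 10286615. On the opposite strand AC011511.5 shares 815 exon bases with ICAM1 and was listed at 0 throughout. AC011511.2 there shares 61 and reached at most 0.23 TPM, and the strand setting is not stated. ICAM1 stood at 7.56, 6.14 and 4.99 TPM with DMSO and at 8.03, 9.80 and 9.92 TPM with HFPO-TA. All 3 HFPO-TA libraries lay above the highest DMSO library, as was so for 8.55% of all tested genes. Groups were apart in either direction for 17.9% of all tested genes. The log2 fold change was 0.51 (SE 0.16, adjusted p = 0.249), which did not pass, and the unadjusted 95% interval of the fold ran from 1.11 to 1.84. A letter in the file names, which the labels do not explain, parts replicate 1 from replicates 2 and 3. The difference was 0.08 between the replicates 1 alone, with 1 library per group, and 0.73 between replicates 2 and 3. The limma fit without replicate 1 of both groups was a setting chosen after seeing the data, and its adjusted p was 0.0738. That was the lowest of the 16 other settings tried (0.0738 to 0.602), in a fit that called 222 genes where the main fit called 77.

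**Figure D2:**
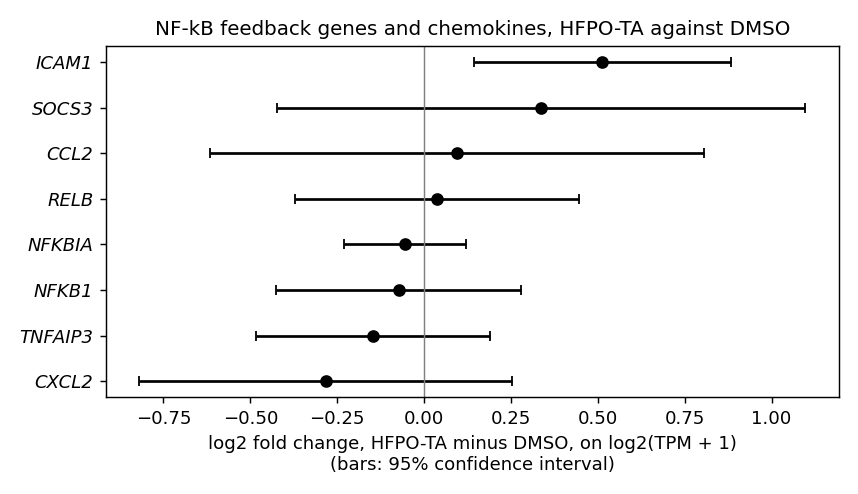
Log2 fold change (HFPO-TA minus DMSO, on log2(TPM + 1)) on the horizontal axis for the 8 tested genes, with bars for the 95% confidence interval from limma over 3 libraries per group. ICAM1, at 0.51, is the only gene whose unadjusted interval lies apart from 0, and none has an adjusted p under 0.05.

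Among the chemokines, CXCL2, which draws neutrophils through CXCR2, was the most abundant of the 4 genes. It lies on chromosome 4 from 74097035 to 74099293. CXCL2 stood at 9.22, 15.16 and 12.78 TPM with DMSO and at 7, 10.83 and 12.35 TPM with HFPO-TA. The groups overlapped, and replicate 1 was the lowest library of each. The log2 fold change was -0.28 (SE 0.23, adjusted p = 0.701), with an interval of the fold from 0.567 to 1.19. The differences were -0.35 between the replicates 1 and -0.25 between replicates 2 and 3.

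CCL2, the monocyte attractant that binds CCR2, was low and varied widely within groups. CCL2 stood at 0.96, 3.01 and 2.57 TPM with DMSO and at 1.83, 1.75 and 3.39 TPM with HFPO-TA. The log2 fold change was 0.09 (SE 0.31, adjusted p = 0.937), and it turned to -0.222 without DMSO replicate 1. The interval of its fold, 0.652 to 1.75, is wide.

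CXCL1 and CXCL8 did not pass the filter of 1 TPM in 3 libraries. Both encode neutrophil attractants, and CXCL8 is interleukin 8. CXCL1 stood at 0.92, 0.41 and 1.45 TPM with DMSO and at 0.26, 0.58 and 0.48 TPM with HFPO-TA. CXCL8 was listed at 0 in DMSO replicate 1 and stood at 0.11 and 0.27 TPM in DMSO replicates 2 and 3, and at 0.11, 0.49 and 0.16 TPM with HFPO-TA. The groups of both overlapped. In a fit with no filter, CXCL1 had a log2 fold change of -0.39 (adjusted p = 0.761) and CXCL8 of 0.15 (adjusted p = 0.779). The power to detect a difference at these levels was not tested.

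SOCS3 encodes a protein that blocks cytokine receptors of the interleukin 6 family and is induced by STAT3. It lies on chromosome 17 from 78356778 to 78360077. SOCS3 stood at 9.84, 5.54 and 7.13 TPM with DMSO and at 15.99, 6.66 and 7.93 TPM with HFPO-TA. Replicate 1 was the highest library of each group, and the groups overlapped. The log2 fold change was 0.34 (SE 0.32, adjusted p = 0.754), with an interval of the fold from 0.746 to 2.14. The value was -0.009 without HFPO-TA replicate 1 and 0.182 without replicate 1 of both groups.

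Most of these genes, like most tested genes, differed more between replicate 1 and replicates 2 and 3 than by treatment. The unexplained letter in the file names makes the same split. In 5 of the 8 tested genes both replicate 1 libraries lay on the same side of the other 4, as was so for 24.8% of all tested genes. SOCS3, TNFAIP3 and NFKB1 were higher there, and CXCL2 and RELB were lower. The difference between replicate 1 and replicates 2 and 3 was larger than that between treatments in 6 of the 8 genes, against 53.6% of all tested genes. For SOCS3 it was 0.81 on the log2 scale, for TNFAIP3 0.32 and for NFKB1 0.29, and for CXCL2 it was -0.60, for RELB -0.39 and for CCL2 -0.62. Replicate 1 libraries also lay above the others for 8 of 11 tested stromal and stellate markers, among them COL1A1 (309.59 and 318.31 TPM in the replicates 1, 161.13 to 218.86 TPM elsewhere). They did so too for 8 of 15 immediate early genes, such as FOS, against 20.0% of all tested genes. For 14 hepatocyte and hepatoblast markers they lay above in 0 and below in 4 (APOA1, DLK1, SERPINA1 and TF), against 4.83% of all tested genes below. For 7 tested endothelial markers they lay above in 1 (KDR) and below in 2 (EGFL7 and PECAM1). The part of any of these in the levels of SOCS3, TNFAIP3, CXCL2 and the rest was not tested.

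**Figure D3:**
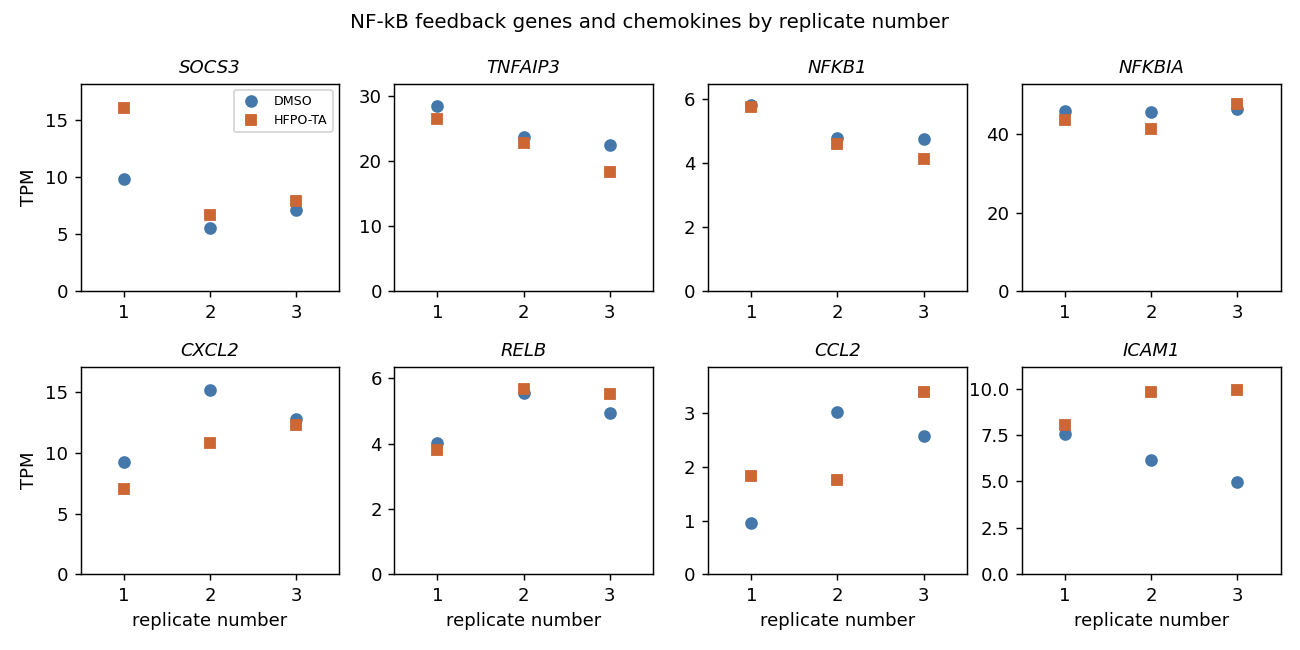
TPM of the 8 tested genes on vertical axes that start at 0, by replicate number, with DMSO as blue circles and HFPO-TA as orange squares. Replicate 1 is highest in both groups for SOCS3, TNFAIP3 and NFKB1 and lowest in both for CXCL2 and RELB, while for ICAM1 the groups part mainly in replicates 2 and 3.

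The rest of the machinery was likewise without a called gene. All 5 NF-kB subunits were tested and 0 were called (0 also at an unadjusted p under 0.05), with a median of 0.04. RELA, the main activating subunit, stood at 34.03 to 38.30 TPM with DMSO and 35.58 to 37.75 TPM with HFPO-TA, and NFKB2 at 21.94 to 38.47 and 26.06 to 31.14 TPM. REL had the lowest fold change of the subunits, at -0.08. Of 6 tested IkB family inhibitors 0 were called and 0 had an unadjusted p under 0.05 (median -0.05). NFKBID lay lowest at -0.53 (adjusted p = 0.516), NFKBIZ highest at 0.08, and NFKBIB stood at 17.57 to 19.99 and 16.33 to 18.95 TPM.

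Upstream of the subunits, 12 of 13 genes of the IKK complex and its kinases were tested and 0 were called or had an unadjusted p under 0.05 (median -0.00441). TAB2 and MAP3K7, partners in the TAK1 kinase complex, were the most abundant, at fold changes of -0.03 and 0.08. TBK1, a related kinase, lay highest at 0.24 (adjusted p = 0.515) and IKBKB lowest at -0.16. Of 23 receptors and adaptors 18 were tested, and 0 were called or had an unadjusted p under 0.05 (median 0.0043). TNFRSF1A, the main receptor for tumor necrosis factor, stood at 59.98 to 68.53 TPM with DMSO and 71.32 to 74.14 TPM with HFPO-TA (0.16, adjusted p = 0.441). Its groups did not overlap, as was so in either direction for 17.9% of all tested genes. The adaptor MYD88 stood at 19.43 to 20.29 and 18.59 to 20.98 TPM. TNFRSF1B lay highest at 0.29 and TRAF3 lowest at -0.23. TLR4, the receptor for bacterial lipopolysaccharide, reached at most 0.57 TPM. Its partner LY96, not tested, was listed at 0 in all DMSO libraries and at 0.27, 0.46 and 0 TPM in HFPO-TA replicates 1 to 3.

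Of 14 genes of ubiquitin editing and RNA decay feedback 13 were tested and 0 were called (median 0.00631). At an unadjusted p under 0.05 there were 2 higher and 1 lower, where 12% of all tested genes reached it in either direction. PDLIM2, a ligase that helps destroy nuclear RELA, stood at 78.28 to 96.28 TPM with DMSO and 68.02 to 74.67 TPM with HFPO-TA (-0.31, adjusted p = 0.242). ZC3H12A, an RNase that degrades cytokine transcripts, stood at 9.61 to 10.34 and 10.85 to 13.94 TPM (0.31, adjusted p = 0.361). Neither gene's groups overlapped, where groups were apart in either direction for 17.9% of all tested genes. TAX1BP1, an adaptor for A20, stood at 69.70 to 79.08 and 77.30 to 89.58 TPM (0.19, adjusted p = 0.409).

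Of the 42 other listed NF-kB target genes 41 were found on 1 row, 31 were tested and 0 were called. At an unadjusted p under 0.05 there were 0 higher and 3 lower, VCAM1, SDC4 and CX3CL1, and the median was -0.07. Among all 15664 tested genes 854 were higher and 1028 lower at that p, or 12% in either direction. SDC4, a cell surface proteoglycan, stood at 128.07 to 134.19 TPM with DMSO and 108.69 to 118.95 TPM with HFPO-TA (-0.21, adjusted p = 0.228). IL32 was the most abundant, at 171.00 to 236.01 and 164.70 to 205.89 TPM, and PTX3, a soluble pattern receptor, lay highest at 0.33. The cytokines IL6 and TNF reached at most 0.61 and 0.16 TPM in any library.

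**Figure D4:**
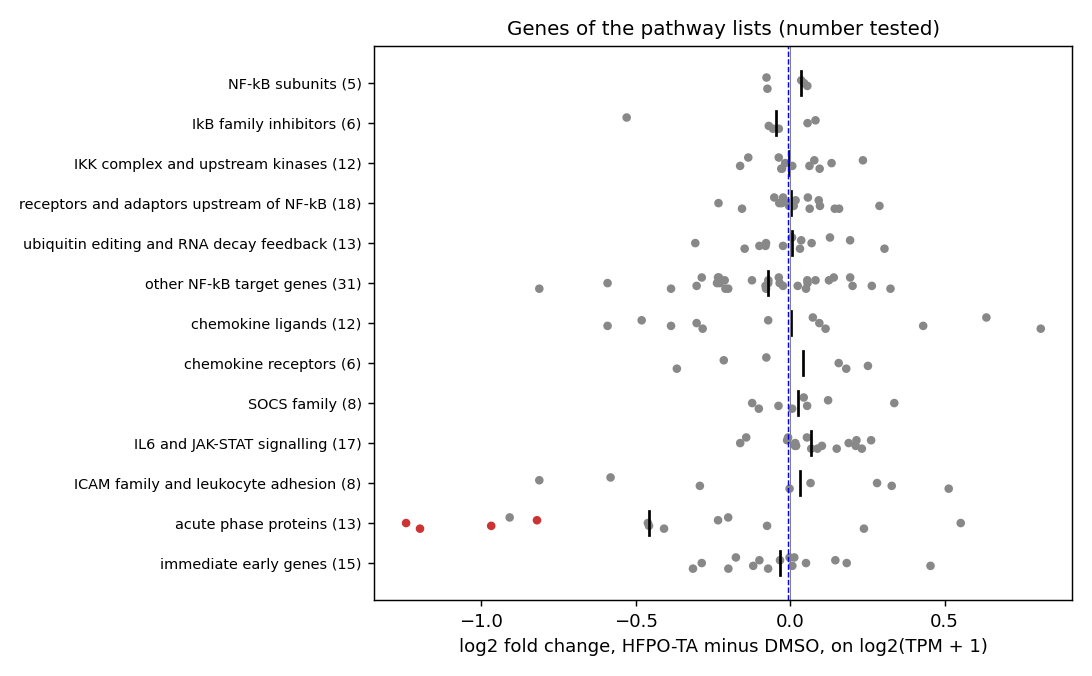
Log2 fold change (HFPO-TA minus DMSO, on log2(TPM + 1)) of each tested gene on the horizontal axis, by list with the number tested in brackets; black bars are list medians and the dashed line is the median of all tested genes, -0.00764. Called genes (red) appear among the acute phase proteins, which have 4, and in no other of the 13 lists.

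ICAM1 and VCAM1, the best known inducible adhesion genes, lay on opposite sides. Of 14 leukocyte adhesion genes 8 were tested and 0 were called (median 0.03). At an unadjusted p under 0.05, which 12% of all tested genes reached in either direction, there was 1 higher (ICAM1) and 1 lower (VCAM1). VCAM1, the ligand of integrin VLA4, stood at 5.05, 7.62 and 6.76 TPM with DMSO and at 3.04, 3.63 and 3.00 TPM with HFPO-TA. Its HFPO-TA libraries all lay below its DMSO libraries, as was so for 9.4% of all tested genes, with a log2 fold change of -0.81 (SE 0.17, adjusted p = 0.092). ICAM2 and ICAM3 stood at fold changes of 0.33 (adjusted p = 0.66) and 0.28 (adjusted p = 0.604), and the groups of each overlapped. SELE, another endothelial target of NF-kB, reached at most 0.11 TPM. EZR, which anchors ICAMs to actin, was the most abundant of the list at 339.87 to 437.82 TPM over all 6 libraries. Endothelial markers, a possible source of ICAM1 and VCAM1, summed to 82.35 to 89.14 TPM with DMSO and 77.06 to 93.78 TPM with HFPO-TA; of the 7 tested 0 were called, 1 was higher at an unadjusted p under 0.05 (EMCN), and VWF reached at most 0.46 TPM. All 11 tested stromal and stellate markers lay below 0 (median -0.171), where 8103 of all 15664 tested genes did, and 0 of them were called. These signs rest on log2 means: mean TPM was higher with HFPO-TA for DCN, LUM and ACTA2 and lower for the other tested markers. Between the replicates 1 alone the markers went both ways, as with DCN at 0.88 and PDGFRA at -0.32. The part of either cell type in the values of ICAM1 and VCAM1 was not tested.

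Of 43 chemokine ligands 26 stayed under 1 TPM in every library, 12 were tested and 0 were called, and an unadjusted p under 0.05 was reached by 2 higher and 2 lower genes (median 0.00147), or 4 of 12 where 12% of all tested genes reached it. CXCL16, a membrane-bound ligand, and CCL15, a CCR1 ligand typical of liver, were the most abundant. CCL15 stood at 28.74, 43.81 and 37.95 TPM with DMSO and at 41.32, 72.44 and 61.60 TPM with HFPO-TA (0.64, adjusted p = 0.336). CCL25, known from gut epithelium, had the highest fold change, at 0.81 (adjusted p = 0.289). CX3CL1, the membrane-bound fractalkine, stood at 6.54, 5.31 and 7.41 TPM with DMSO and at 4.66, 3.32 and 3.79 TPM with HFPO-TA (-0.59, adjusted p = 0.202). CXCL12, the ligand of CXCR4, stood at 1.53 to 2.23 and 0.86 to 1.28 TPM (-0.48, adjusted p = 0.34). CXCL3 and CXCL5, close relatives of CXCL1 and CXCL2, stood at fold changes of -0.39 and -0.30 (adjusted p = 0.636 and 0.556). Of 22 chemokine receptors 6 were tested and 0 were called or had an unadjusted p under 0.05 (median 0.04). CXCR1 and CXCR2, the receptors for CXCL8 and its kin, were listed at 0 throughout. The most abundant receptors were ACKR3 and CXCR4, which stood at fold changes of -0.08 and -0.37, and CCR6 lay highest at 0.25.

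**Figure D5:**
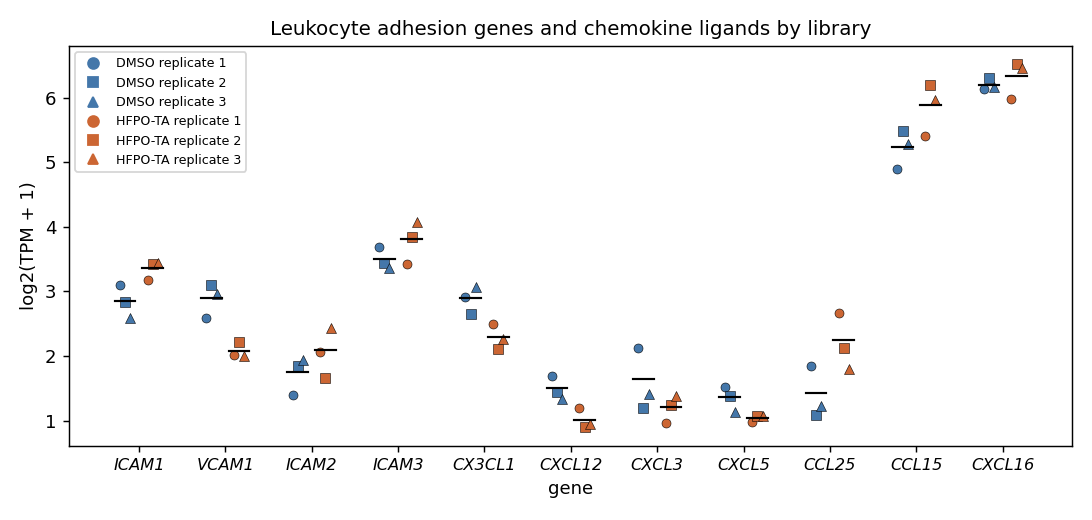
Levels of leukocyte adhesion genes and chemokine ligands as log2(TPM + 1) on the vertical axis, with 1 point per library (blue DMSO, orange HFPO-TA, shape by replicate number) and black bars at the log2(TPM + 1) of each group's mean TPM. ICAM1 lies higher and VCAM1, CX3CL1, CXCL12 and CXCL5 lower in all 3 HFPO-TA libraries than in any DMSO library. Of all tested genes 8.55% lie higher and 9.4% lower in this way, and none of the genes shown has an adjusted p under 0.05.

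Around SOCS3, 8 of 8 SOCS family genes were tested and 0 were called or had an unadjusted p under 0.05 (median 0.03). SOCS2, a brake on growth hormone signalling, was the most abundant at 24.45 to 34.86 TPM over the 6 libraries, SOCS7 stood at -0.04 and CISH lay lowest at -0.12. Of 18 genes of interleukin 6 and JAK-STAT signalling 17 were tested and 0 were called, while 2 higher and 0 lower had an unadjusted p under 0.05 and 13 of 17 lay above 0 (median 0.07). Of all 15664 tested genes, 854 were higher at that p and 7561 lay above 0. TYK2, a receptor-bound kinase, stood at 31.42 to 33.53 TPM with DMSO and 37.00 to 39.46 TPM with HFPO-TA (0.21, adjusted p = 0.29). The shared receptor chain IL6ST and the phosphatase PTPN11 were the most abundant, each at a fold change of 0.02, while PIAS1 lay highest at 0.26 and STAT6 lowest at -0.16. STAT3 itself stood at 43.69 to 53.25 and 44.58 to 50.44 TPM.

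Acute phase proteins, made by hepatocytes under interleukin 6 and NF-kB signals, differed from the feedback genes in having called members. Of 15 listed 13 were tested, 0 rose and 4 fell, where 0.306% of all tested genes were called lower (median -0.46). LBP, which binds lipopolysaccharide, fell by 0.82 on the log2 scale (adjusted p = 0.0451), and the fibrinogen chains FGA, FGB and FGG were the others. The list was written with these falls known, so its count is not independent evidence. In all, 11 of the 13 lay below 0 and 2 above. HP, below 0 but not called, stood at 65.80 to 75.39 TPM with DMSO and 23.22 to 50.75 TPM with HFPO-TA (-0.91, adjusted p = 0.277). SERPINA3, a protease inhibitor of the acute phase, went the other way at 12.72, 14.68 and 14.09 TPM with DMSO and 21.03, 19.25 and 21.95 TPM with HFPO-TA (0.55, adjusted p = 0.0678). SAA1, which NF-kB and STAT3 both drive, stood at 91.68 to 153.76 and 134.33 to 151.10 TPM (0.24, adjusted p = 0.668), and CRP was listed at 0 in all libraries. No test compared the acute phase genes with the feedback genes.

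Immediate early genes, which respond to handling and growth signals within minutes, had 15 of 18 members tested and 0 called (median -0.03). At an unadjusted p under 0.05, reached by 12% of all tested genes, there was 1 higher and 0 lower. That gene was DUSP1, a MAP kinase phosphatase, at 78.55 to 100.05 TPM with DMSO and 107.22 to 130.52 TPM with HFPO-TA (0.45, adjusted p = 0.143). JUND was the most abundant, at 0.15, and FOS lay lowest at -0.31 (adjusted p = 0.69).

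Markers of other cells gave no called gene outside the hepatocyte list. In that list 14 were tested, 0 rose and 1 fell (FGB), and 8 were lower at an unadjusted p under 0.05, where 1028 of the 15664 tested genes were. Tested and called members numbered 6 and 0 for biliary markers, 4 and 0 for macrophage markers, 11 and 0 for stromal and stellate markers, and 5 and 0 for pluripotency markers. At an unadjusted p under 0.05 there was 1 lower biliary, stromal and pluripotency marker each (CFTR, PDGFRA and DNMT3B) and 0 macrophage markers. Of the 8 lymphocyte markers only CD3D passed the filter, at 16.89 to 39.69 TPM and not called, while its partner CD3E reached at most 0.08 TPM. Macrophage markers summed to 53.68 to 59.52 TPM with DMSO and 52.73 to 65.62 TPM with HFPO-TA, mostly from CD68, which other cells also express.

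Over the 6 libraries, the genes whose pattern was most like the average pattern of the 8 tested genes were BPNT1, NBPF11, RAD52, ZBTB9, IFT74 and SLC1A4, with Pearson's r of 0.9821 to 0.9614 on log2(TPM + 1). The likeness was sought among 10660 genes over only 6 libraries that share 2 groups, and it is a description. The average itself, in standard deviations per gene, lay between -0.198 in HFPO-TA replicate 2 and 0.181 in HFPO-TA replicate 3.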

How the data were processed

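RNA sequencing of 6 libraries was analysed, 3 with DMSO and 3 with HFPO-TA. The values deposited by the authors, headed FPKM per the file headers, sum to nearly the same total in each library (995690 to 996186) and were read as TPM. Per the submitters' processing notes, HISAT, Bowtie2 and RSEM were used with GRCh38.p13, and no version or role is listed. The strand setting and annotation are not stated. Since depth cannot be had from TPM, no counting interval is given and count tests were not run.

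Values were taken as log2(TPM + 1), and a gene had to reach 1 TPM in 3 libraries to enter the test. The 15664 that did were tested with limma 3.58.1 in R 4.3.3 (treatment as the only term, trended and robust variance, 2-sided, Benjamini-Hochberg over all tested genes, threshold 0.05). On simulated data for HFPO-TA against DMSO, with 15664 genes and 200 changed, the fit called 29.6% of those given a log2 change of 0.5, 72.2% of those given 1 and 95.0% of those given 2. The changed genes were drawn above a floor on mean level, and the simulated noise was independent between libraries. These shares therefore do not cover the lowest tested genes or a split shared by replicate number. The 10 genes and the 13 pathway and 7 marker lists were chosen with earlier results of these data known. Named from each list were called genes, the 2 most abundant, the smallest p and both extremes of fold change; other genes, such as TLR4, STAT3 and CXCL3, were named after their values were seen. SOD2 has 2 rows and was left out. Likeness used genes with a mean of at least 5 TPM. Positions are from GENCODE 29; transcripts were compared with blastn 2.17.0. Replicate numbers were not taken as pairs, since the labels state no block. Even so, 2 of 3 same-number pairs had deviations correlated over 0.1, and a fit with replicate number as a block is given below.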

Additional observations from a re-analysis of the deposited data

How the results depend on the processing

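Of the 8 tested genes 0 were called in each of the 16 other settings, although the filter of 5 TPM left CCL2 and NFKB1 untested. ICAM1 kept its sign in all 16 (0.385 to 0.732, adjusted p 0.0738 to 0.602), and so did NFKBIA (-0.11 to -0.01), TNFAIP3 (-0.266 to -0.013) and CXCL2 (-0.465 to -0.066). The ranges were -0.222 to 0.295 for CCL2, -0.184 to 0.013 for NFKB1, -0.069 to 0.189 for RELB and -0.009 to 0.566 for SOCS3, whose extremes came from leaving out 1 library. Signs turned when libraries were left out: without DMSO replicate 1 RELB was at -0.069, CCL2 at -0.222 and NFKB1 at 0.006; without HFPO-TA replicate 1 SOCS3 was at -0.009; without HFPO-TA replicate 2 RELB was at -0.048; without HFPO-TA replicate 3 RELB was at -0.032, CCL2 at -0.123 and NFKB1 at 0.013; without replicate 1 of both groups, a setting chosen after seeing the data, CCL2 was at -0.123. The cause was not tested.

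Over all genes, 77 were called, 37.7% of them higher. The number was 10 with no filter (60.0% higher), 130 with a filter of 5 TPM, 30 when scaled by median ratios, 40 when scaled by upper quartiles (30% higher), 11 with a plain variance estimate (72.7% higher), 207 with a term for the file name letter and 222 without replicate 1 of both groups. Leaving out 1 library gave from 6 (HFPO-TA replicate 2) up to 291 (HFPO-TA replicate 1). With the replicate number as a block 30 genes were called. In that fit ICAM1, CXCL2 and SOCS3 had unadjusted p under 0.05 but adjusted p of at least 0.258. Taken as deviations from the group mean, 5 of the 6 libraries correlated best with the library of their own number. The same-number correlations were weak, at 0.184, 0.123 and 0.0282 for replicates 1 to 3, a hint from the data and not the design. DESeq2 was not run, since the values are TPM. The unknown depth limits what can be said of CXCL1, CXCL8 and CCL2.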
